A study of Homo sapiens with 9 samples.

Results

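The comparison set HL13 directly against LBH589 in the myeloma line MM.1S, established from human plasma cells, by Human Transcriptome array. HL13 is known here by its code only, and LBH589 is panobinostat. Cells in RPMI1640 medium with FBS received HL13 at 5 nM, LBH589 at 5 nM or the solvent DMSO alone, and total RNA was taken after 24 h. The comparison rests on 6 of the 9 arrays, chosen by their treatment labels: 3 of HL13 and 3 of LBH589. The other 3, of DMSO, served as the baseline. The question was which genes differed in kind between the compounds, and which only in strength. Kind and strength are meant at 5 nM and 24 h alone, since no other dose or time was measured. An equal dose need not be an equally effective dose. Whether a gene near DMSO at 5 nM moves at another dose was not tested.

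Histone deacetylases remove acetyl groups from lysines of histones and of other proteins, and work with histone acetyltransferases to set how acetylated chromatin is. Inhibitors such as panobinostat, which acts on most zinc-dependent members of the family, raise acetylation and change the level of many transcripts in both directions. Myeloma cells are malignant plasma cells that fold and secrete immunoglobulin, and they depend on transcription factors such as IRF4, IKZF1, IKZF3 and MYC, on the proteasome and on the unfolded protein response. Panobinostat had been approved against relapsed or refractory myeloma together with a proteasome inhibitor and dexamethasone. The study states that this approval was later withdrawn.

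All 8 plasma cell markers checked, SDC1, TNFRSF17, PRDM1, IRF4, XBP1, CD38, SLAMF7 and JCHAIN, lay above the median of all probe sets on each of the 9 arrays. The B cell marker MS4A1, the T cell marker CD3D, the monocyte markers CD14 and LYZ and the erythroid marker ALAS2 lay above it on none. Other markers of those types did lie above it on all arrays, 2 of 3 for B cells, 4 of 5 for T and NK cells, 2 of 4 for monocytes, 3 of 4 for fibroblasts and endothelium and 1 of 2 for erythroid cells. Each array is labelled a biological replicate, with no word on how many cultures were grown. The p-values therefore measure the spread between these arrays, which may be technical in part. The array medians lay between 5.33 and 5.38 on the log2 scale. The median SD over genes was 0.0357 among the HL13 arrays, 0.0409 among the DMSO arrays and 0.0598 among the LBH589 arrays, and LBH589 replicates 1 and 3 were the least alike pair of any group (r = 0.653 of gene-centred values, against at least 0.824 for the other pairs).

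Every value below is a log2 intensity, and a difference of 1 between log2 values is a 2-fold difference. A gene was called where the adjusted p was under 0.05. Of 15842 genes tested, 5172 were called between HL13 and LBH589, which is 32.6% of them. The HL13 level was the higher of the pair for 2489 genes (15.7%) and the lower for 2683 (16.9%). Most of these differences were small. In 4709 of the called genes (91.0%) the compounds differed by less than 0.5, and the median absolute difference of called genes was 0.223. At 2-fold or more, 39 genes were higher with HL13 (0.246% of genes tested) and 6 were lower (0.0379%). The arrays of HL13 and LBH589 did not overlap for 6697 genes (42.3%), HL13 above in 3186 (20.1%) and below in 3511 (22.2%). The median standard error of the difference was 0.0427 over 3 arrays a group, and the 95% interval reached 0.0954 to either side.

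Each compound alone changed more genes than separated them: against DMSO, 9221 genes (58.2%) were called with HL13, 29.5% of genes up and 28.7% down, and 8588 (54.2%) with LBH589, 28.1% up and 26.1% down. Both comparisons used the same 3 DMSO arrays, so their values are set side by side as a description. On a line fitted through the changes of all genes, the LBH589 change was 0.879 of the HL13 change. This slope was 0.824 over genes raised by HL13 and 0.933 over genes lowered by it. LBH589 lay above that line for 2608 genes (16.5%) and below it for 2510 (15.8%), and by a log2 distance of at least 1 for 3 genes above (0.0189%) and 15 below (0.0947%).

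The called genes fell into 4 kinds by their changes against DMSO. Both compounds moved 3170 of them (61.3% of called genes and 20% of genes tested) in the same direction, HL13 further for 2086 and LBH589 further for 1084. For these the compounds shared a direction and differed in the size of the change. Such a gene can still lie off the common line, as TLR3 did. For 915 genes (17.7% and 5.78%) HL13 gave a called change while LBH589 stayed near DMSO, meaning a change that was not called and whose 95% interval lay within 0.25 of 0. For 599 genes (11.6% and 3.78%) LBH589 gave a called change while HL13 stayed near DMSO by the same rule. The compounds moved 194 genes (3.75% and 1.22%) in opposite directions, 64 up with HL13 and 130 down. The median absolute difference was 0.388 for opposite genes, against 0.222 for genes moved in the same direction. The other 294 called genes met none of these definitions.

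**Figure D1:**
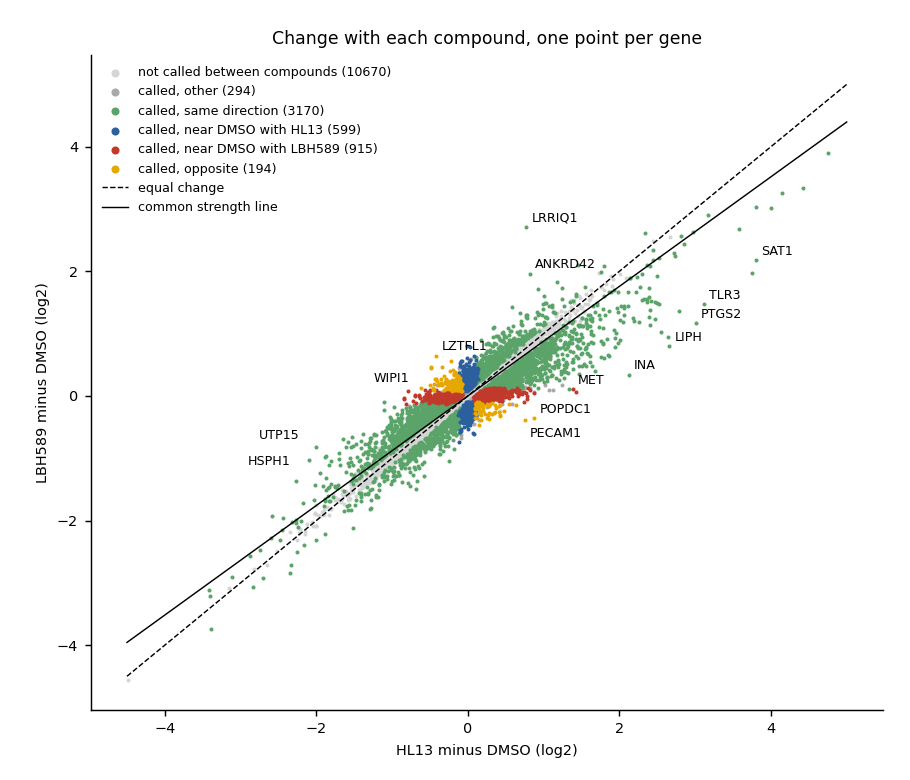
Log2 change against DMSO with HL13 (horizontal) and with LBH589 (vertical), 1 point per gene, coloured by the kind of difference between the compounds. The dashed line marks equal change and the solid line the common slope of 0.879. Points lie along both lines, with a flatter cloud of strongly raised genes (SAT1, TLR3, PTGS2, LIPH, INA) below them and LRRIQ1 and ANKRD42 above.

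The genes named here as furthest apart are protein-coding ones, since non-coding and unnamed loci were left out of the ranking. LIPH, a phospholipase that makes lysophosphatidic acid, read 6.63, 6.62 and 6.77 with HL13, 4.81, 4.74 and 4.90 with LBH589 and 3.93, 3.99 and 4.13 with DMSO. The HL13 arrays stood clear of all others, with a difference from LBH589 of 1.86 ± 0.0626 (SE). The DMSO and LBH589 arrays lay below the median of all probe sets, so LIPH passed the filter on dim values through its HL13 arrays alone, and its difference is given with no test. PTGS2, the inducible cyclooxygenase of prostaglandin synthesis, read 7.30, 7.34 and 7.20 with HL13, 5.30, 5.43 and 5.59 with LBH589 and 4.26, 4.35 and 4.21 with DMSO. Here too the 3 groups did not overlap, and HL13 was 3.58-fold higher than LBH589 (difference 1.84 ± 0.0701 (SE), adjusted p 2.43e-07).

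INA, which encodes the neuronal intermediate filament alpha-internexin, read 8.71, 8.79 and 8.74 with HL13 against 7.03, 7.04 and 6.84 with LBH589 and 6.69, 6.60 and 6.59 with DMSO. Its LBH589 arrays sat just above DMSO, by 0.34, whereas HL13 stood 2.12 above DMSO. SAT1, the acetyltransferase that starts polyamine breakdown, was strongly raised by both compounds, to 9.77, 9.75 and 9.69 with HL13 and 8.05, 8.09 and 8.21 with LBH589 from 5.97, 5.93 and 5.92. The excess of HL13 was 1.62 ± 0.0446, 3.07-fold, with an adjusted p of 9.24e-08. TNFRSF10B, the TRAIL receptor DR5, read 8.59, 8.55 and 8.60 with HL13, 7.31, 7.32 and 7.27 with LBH589 and 6.84, 6.96 and 6.89 with DMSO. Its arrays were tight in each group, and HL13 exceeded LBH589 by 1.28 ± 0.0361 (adjusted p 9.24e-08).

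The rest of the 10 largest among protein-coding genes were IRGM, a GTPase of autophagy (3.44-fold), ERRFI1, a feedback inhibitor of the EGF receptor (3.24-fold), TLR3 (3.11-fold), the mitochondrial protein gene MGARP (2.87-fold) and DHRS2, a dehydrogenase long known to respond to deacetylase inhibitors (2.68-fold). All 39 genes at least 2-fold higher with HL13 were also called up with HL13 against DMSO. Of them 33 rose with both compounds, 2 moved in opposite directions and 2 stayed near DMSO with LBH589. In 7 of the 39 the LBH589 group lay below the median of all probe sets on every array. Of the list members named below, HLA-DQA1, RSAD2, STMN2, KDELR3 and IL13RA1 passed the filter through their HL13 arrays alone. Such members could be tested only because they were high with HL13, and the list counts include them.

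**Figure D2:**
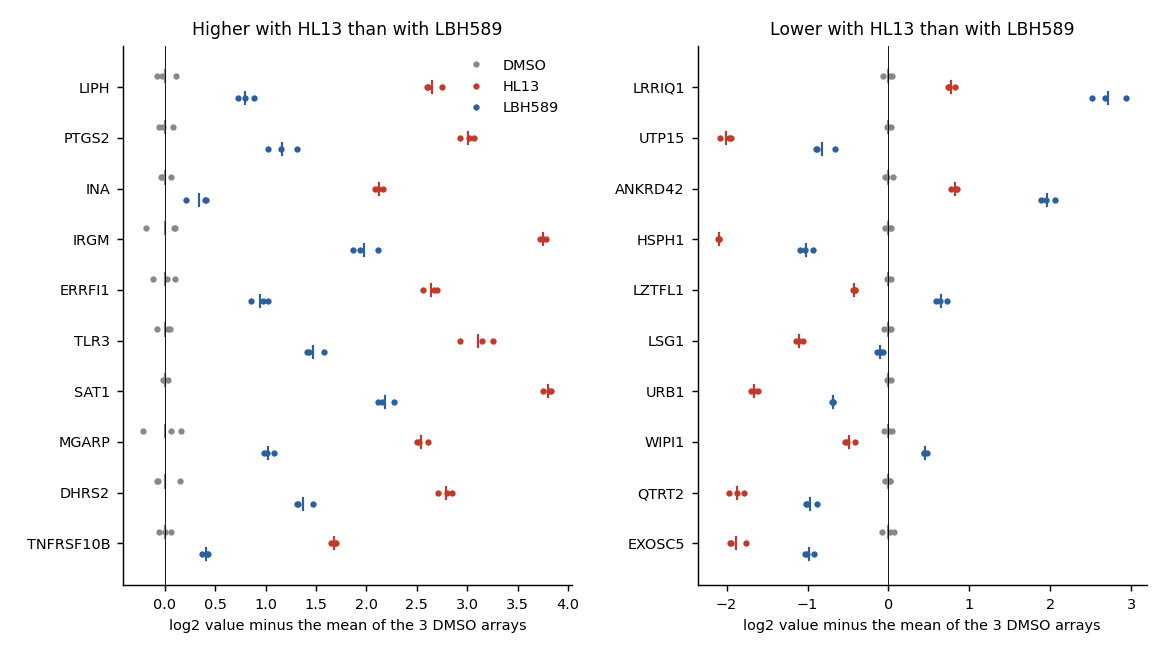
The 10 protein-coding genes furthest above and the 10 furthest below LBH589 with HL13, as log2 value minus the DMSO mean, 1 point per array and a tick at each group mean. For LIPH, PTGS2 and INA the HL13 points stand furthest to the right of the LBH589 points, and for LRRIQ1 the LBH589 points do.

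Only 6 genes were at least 2-fold lower with HL13. LRRIQ1, a gene with leucine-rich repeats, had the largest difference of any gene named here. It read 4.56, 4.65 and 4.57 with HL13, 6.33, 6.50 and 6.76 with LBH589 and 3.86, 3.76 and 3.84 with DMSO, so the LBH589 arrays stood alone and the HL13 arrays, though above DMSO, stayed below the median of all probe sets. The difference was -1.93 ± 0.0875, and it is given with no test because LRRIQ1 passed the filter through its LBH589 arrays alone. ANKRD42, which encodes an ankyrin repeat protein, followed the same order, at 6.46, 6.40 and 6.46 with HL13, 7.50, 7.57 and 7.68 with LBH589 and 5.68, 5.57 and 5.61 with DMSO. LBH589 was 2.21-fold higher there.

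Several other large deficits with HL13 were in genes that both compounds lowered. UTP15, a component of the complex that processes the small ribosomal subunit RNA, read 6.26, 6.28 and 6.15 with HL13, 7.33, 7.35 and 7.57 with LBH589 and 8.21, 8.26 and 8.23 with DMSO. HL13 left it a further 2.28-fold lower (difference -1.19 ± 0.0615, adjusted p 7.43e-07). HSPH1, an Hsp110 cochaperone of Hsp70, went from 9.76, 9.77 and 9.70 to 7.66, 7.64 and 7.65 with HL13 but only to 8.65, 8.71 and 8.81 with LBH589, a 2.11-fold difference. LSG1, a GTPase that matures the large ribosomal subunit, changed by -1.10 with HL13 and by -0.10 with LBH589. URB1, a ribosome assembly factor, EXOSC5, a subunit of the RNA exosome, and QTRT2, a subunit of the enzyme that places queuine in tRNA, also fell further with HL13, with differences of -0.97, -0.90 and -0.91.

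Among the 194 opposite genes, WIPI1, which binds phosphoinositide on forming autophagosomes, had the clearest split. It read 8.22, 8.25 and 8.34 with HL13, 9.24, 9.20 and 9.19 with LBH589 and 8.70, 8.80 and 8.77 with DMSO, so DMSO lay midway and no groups overlapped. The difference was -0.94 ± 0.0395, 1.92-fold, with an adjusted p of 3.28e-07. LZTFL1, a regulator of protein traffic in cilia, split the same way, at 6.33, 6.33 and 6.30 with HL13, 7.32, 7.37 and 7.46 with LBH589 and 6.73, 6.77 and 6.71 with DMSO. The circadian repressor CRY1 and the ciliary transition zone gene TCTN3 were likewise down with HL13 (changes of -0.34 and -0.31) and up with LBH589 (0.47 and 0.32).

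The reverse split was seen for POPDC1, a cAMP-binding membrane protein gene, which read 8.66, 8.69 and 8.68 with HL13, 7.35, 7.42 and 7.58 with LBH589 and 7.90, 7.79 and 7.72 with DMSO. HL13 was 2.34-fold above LBH589, with DMSO between them. The endothelial and leukocyte adhesion gene PECAM1 also split, at 6.33, 6.56 and 6.20 with HL13 against 5.21, 5.26 and 5.18 with LBH589, but its DMSO arrays spread from 5.43 to 5.88. DTX3L, a ubiquitin ligase that works with PARP9 in interferon responses, read 7.13, 7.19 and 7.18 with HL13, 6.38, 6.47 and 6.43 with LBH589 and 6.75, 6.70 and 6.78 with DMSO. CIRBP, a cold-inducible RNA-binding protein gene, the cytochrome P450 gene CYP20A1 and the protocadherin gene FAT1 were up with HL13 by 0.32, 0.42 and 0.28 and down with LBH589 by 0.30, 0.33 and 0.37.

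In the genes that moved with HL13 alone, MET, the receptor for hepatocyte growth factor, had the largest difference among protein-coding ones. Its HL13 arrays read 7.06, 7.04 and 6.98, against 5.71, 5.78 and 5.78 with LBH589 and 5.73, 5.62 and 5.58 with DMSO. The LBH589 and DMSO arrays lay next to each other, with a change of 0.11 (95% interval 0.01 to 0.20), whereas HL13 exceeded LBH589 by 1.27 ± 0.0426, 2.42-fold (adjusted p 1.25e-07). SYNM, an intermediate filament gene, and THAP9, a gene derived from a DNA transposase, behaved alike, with HL13 minus LBH589 differences of 0.82 and 0.77. KIAA0753, a centriolar satellite gene, MARS2, the mitochondrial methionyl-tRNA synthetase gene, and SRFBP1, which encodes a partner of serum response factor, were lower with HL13 alone, by -0.88, -0.81 and -0.80 against LBH589.

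In the genes that moved with LBH589 alone, HECTD3, a ubiquitin ligase, read 8.50, 8.39 and 8.44 with LBH589, while HL13 (7.64, 7.66 and 7.62) and DMSO (7.68, 7.64 and 7.63) overlapped. Its HL13 change was -0.01 (95% interval -0.09 to 0.07), and HL13 minus LBH589 was -0.80 ± 0.0346 (adjusted p 3.46e-07). DDIAS, an antiapoptotic gene of the DNA damage response, the ciliary gene RPGRIP1L and PIGA, which acts at the first step of GPI anchor synthesis, were also raised by LBH589 alone, with differences of -0.74, -0.66 and -0.65. ALDH1L2, a mitochondrial enzyme of folate metabolism, fell by 0.74 with LBH589 and was 0.62 higher with HL13.

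**Figure D3:**
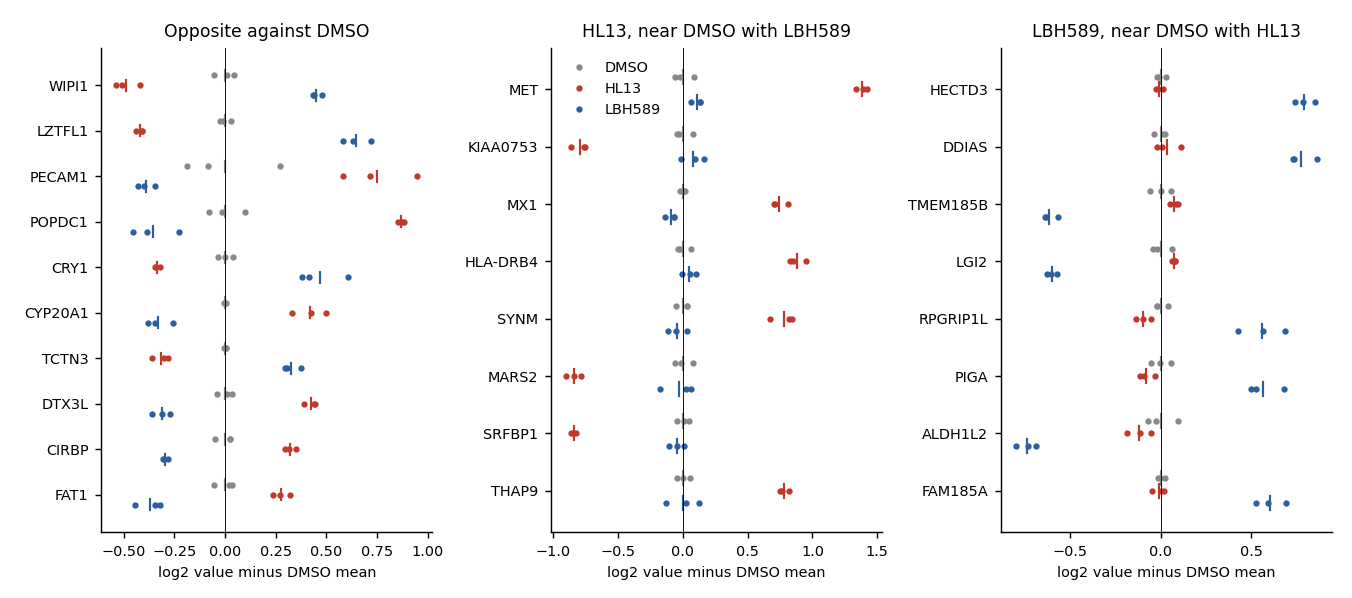
Log2 value minus the DMSO mean on each array for 10 genes that moved in opposite directions (left), 8 that moved with HL13 and stayed near DMSO with LBH589 (middle) and 8 that moved with LBH589 and stayed near DMSO with HL13 (right), with a tick at each group mean. WIPI1 and LZTFL1 fall left of DMSO with HL13 and right of it with LBH589, MET moves with HL13 and HECTD3 with LBH589.

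Some of the largest changes in the cells did not separate the compounds. TNFRSF17, the receptor BCMA and a plasma cell marker, went from 10.03, 10.10 and 10.03 to 5.55, 5.58 and 5.56 with HL13 and to 5.48, 5.41 and 5.58 with LBH589. The drug arrays overlapped, and the difference was 0.07 with a 95% interval of -0.03 to 0.17. The interval was -0.07 to 0.11 for XBP1, the transcription factor of the secretory programme, -0.15 to 0.04 for the syndecan gene SDC1 and -0.14 to 0.07 for the surface receptor gene SLAMF7, all of which fell with both compounds by at least 1.44. In 3 further genes, chosen after their values were seen, the intervals also held 0: -0.10 to 0.05 for TXNIP, -0.18 to 0.10 for APAF1 and -0.11 to 0.06 for CCND2. A p that misses the threshold does not show that the compounds act alike. In TNFRSF17, XBP1, SDC1 and SLAMF7, though, any difference was small beside the change against DMSO. In cultures measured in bulk, fewer cells carrying a transcript and less of it per cell cannot be told apart.

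The plasma cell identity list, as a whole, did not lean to either compound: of 34 genes tested 9 were higher with HL13 and 7 lower (4 without HL13 replicate 1), and the median difference was 0.00 (all genes tested: 15.7% higher, 16.9% lower, median difference 0.00). The counts of the lists below are to be read against these shares. The lists were chosen with earlier results of these data known, so their counts are a description. Some plasma cell members did differ. CD38, an ectoenzyme and antibody target, read 9.72, 9.69 and 9.62 with HL13, 8.84, 8.88 and 8.95 with LBH589 and 8.25, 8.22 and 8.26 with DMSO, rising with both and further with HL13. PRDM1, the plasma cell master regulator, and GPRC5D, an orphan receptor, differed by -0.47 and 0.47.

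Of the 6 survival factors that the study itself singles out, all measured and all called, 2 were higher with HL13 and 4 lower. The list comes from the study of these same cells, so its count is not independent evidence of a direction. The study showed these factors decreased as proteins by western blot, whereas the values here are RNA. Against DMSO, 5 of the 6 were called down and 1 up with each compound. IRF4 read 10.98, 11.01 and 10.98 with HL13, 10.62, 10.64 and 10.65 with LBH589 and 11.17, 11.09 and 11.09 with DMSO. It fell with both, but less with HL13, by 0.12 against 0.48. MYC went the other way, at 8.17, 8.22 and 8.23 with HL13 and 8.61, 8.56 and 8.56 with LBH589 from 10.05, 10.08 and 10.03, a difference of -0.37 (adjusted p 1.37e-05). IKZF3 and IKZF1, lymphoid zinc finger factors, differed by -0.40 and -0.20, the methyltransferase gene EZH2 by 0.18 and the kinase gene CDK6 by -0.16. The CDK6 call was the weakest of the 6, with an adjusted p of 0.0414, and it was lost when any 1 array other than LBH589 replicate 1 was left out, with the replicate block, with the 6 drug arrays alone, with centred arrays, with no filter and with the methods' test (adjusted p 0.0529 to 0.206).

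Antigen presentation by MHC class II was the list with the largest share of members higher with HL13: 18 of 22 genes tested were higher and none lower, with a median difference of 0.46. MHC class II molecules display peptides to helper T cells. HLA-DQA1 read 5.81, 5.89 and 5.84 with HL13, 4.67, 4.63 and 4.57 with LBH589 and 4.53, 4.54 and 4.47 with DMSO. The LBH589 arrays sat 0.11 above DMSO and the HL13 arrays 1.33 above it, and both DMSO and LBH589 lay below the median of all probe sets. HLA-DQA1 therefore entered the count of 18 through its HL13 arrays alone. HLA-DRB1 and the lysosomal protease gene LGMN differed by 0.79 and 0.76. HLA genes have near-identical copies and probe sets may read several, so single HLA values are uncertain. Of 21 genes of MHC class I presentation 13 were higher with HL13 and 1 lower (median difference 0.14), among them HLA-E, a ligand of natural killer cell receptors, which LBH589 left near DMSO (difference 0.45).

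Interferon-stimulated genes are switched on downstream of interferon receptors, many of them through a promoter element called the interferon-stimulated response element (ISRE). Of 43 tested 27 were higher with HL13 and 1 lower, with a median difference of 0.17. The members did not all rise: the median change against DMSO was 0.12 with HL13 and -0.01 with LBH589. MX1, an antiviral GTPase, read 7.75, 7.86 and 7.76 with HL13, 6.98, 6.98 and 6.91 with LBH589 and 7.03, 7.06 and 7.06 with DMSO. The HL13 arrays stood well above the rest and the LBH589 arrays just below DMSO, with a change of -0.09 (95% interval -0.18 to -0.01) that was not called. TLR3, the endosomal receptor of double-stranded RNA and a member of the list of nucleic acid sensors, read 7.19, 7.31 and 6.98 with HL13, 5.46, 5.48 and 5.62 with LBH589 and 4.10, 3.97 and 4.08 with DMSO. It rose with both compounds and further with HL13 (difference 1.64 ± 0.0786, adjusted p 4.99e-07).

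In the interferon-stimulated list, 3 other named genes rose with both compounds and further with HL13. The guanylate-binding protein gene GBP4 changed by 1.61 and 0.55, the mitochondrial protein gene IFI6 by 2.50 and 1.49 and the antiviral enzyme gene RSAD2 by 1.13 and 0.48 with HL13 and LBH589. Of 20 innate nucleic acid sensors and their adaptors 6 were higher with HL13 and none lower, including RIGI, a cytosolic RNA helicase (difference 0.50). Of 11 interferon and chemokine genes taken from the study 6 passed the filter on dim probe sets. Of these, TLR3, MX1 and RSAD2 were higher with HL13, and CXCL10, CCL25 and IFI27 were not called. RSAD2 passed that filter through its HL13 arrays alone. The study named this list from xenograft tumour tissue of treated mice, whereas the arrays here are of cultured cells. The values here are therefore not a like-for-like test of that result. The tumours came from the same cell line, so the count is not independent evidence of a direction either. The study also measured TLR3 and MX1 by RT-PCR in cultured cells of this line and reports no significant increase with panobinostat. On the arrays here TLR3 did rise with LBH589, as given above, which differs from that report. MX1 did not rise with LBH589. The doses of the RT-PCR are not given in the study's text, so they may differ from the dose here. With no filter 7 of the study's 11 genes were higher with HL13. The genes that this adds were dim, above their array's median on fewer than 3 of the 9 arrays. CXCL10, a chemokine, lay lower than DMSO with both compounds, by 0.70 with HL13 and 0.52 with LBH589, a difference of -0.18 with an adjusted p of 0.0828.

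The promoters of MX1, TLR3 and DTX3L, the last of which is in neither list, are shown because they hold the ISRE core, written as GAAA, 2 bases of any kind and GAAA, searched on both strands. Each runs from 250 bases before to 50 bases after the RefSeq start (GRCh38.p14), and the core is in capitals: MX1 at chr21:41420308-41420607, TLR3 at chr4:186068906-186069205 and DTX3L at chr3:122564088-122564387, all on the + strand. They were chosen after their values were seen.
MX1: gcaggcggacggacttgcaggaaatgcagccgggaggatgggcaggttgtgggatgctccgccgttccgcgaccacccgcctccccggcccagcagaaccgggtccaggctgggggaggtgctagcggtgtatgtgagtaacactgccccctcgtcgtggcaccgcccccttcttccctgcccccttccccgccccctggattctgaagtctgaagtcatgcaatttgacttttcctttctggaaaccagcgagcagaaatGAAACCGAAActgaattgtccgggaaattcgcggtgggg
TLR3: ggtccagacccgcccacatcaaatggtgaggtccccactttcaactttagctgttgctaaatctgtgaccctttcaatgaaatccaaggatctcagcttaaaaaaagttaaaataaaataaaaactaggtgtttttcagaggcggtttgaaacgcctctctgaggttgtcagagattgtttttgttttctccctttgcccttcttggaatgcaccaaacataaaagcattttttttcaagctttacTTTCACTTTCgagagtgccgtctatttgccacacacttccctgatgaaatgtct
DTX3L: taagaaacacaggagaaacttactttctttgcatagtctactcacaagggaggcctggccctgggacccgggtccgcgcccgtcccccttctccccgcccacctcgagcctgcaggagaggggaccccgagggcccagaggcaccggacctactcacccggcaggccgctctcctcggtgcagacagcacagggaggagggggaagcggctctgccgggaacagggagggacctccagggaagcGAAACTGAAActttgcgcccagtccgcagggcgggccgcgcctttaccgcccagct

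The core was found in 3.57% of the 35116 promoters listed and for 3.63% of the 11341 tested genes that had a promoter there. Among genes called and at least 0.5 higher with HL13 it was found for 18 of 210 (8.57%), and among those at least 0.5 lower for 4 of 140 (2.86%). In the interferon-stimulated list 23 of 35 genes held it (65.7%). Both sets were picked by their difference between the compounds. RSAD2, among the 18, passed the filter on dim values through its HL13 arrays alone. A match describes letters in this window and no binding.

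Genes known to rise with histone deacetylase inhibitors were mostly higher with HL13: 24 of 37 higher and 1 lower, with a median difference of 0.25. DHRS2 read 8.59, 8.69 and 8.74 with HL13, 7.36, 7.20 and 7.19 with LBH589 and 5.81, 5.81 and 6.04 with DMSO, with no overlap. ENPP2, which encodes the lysophospholipase autotaxin, rose by 4.43 with HL13 and by 3.34 with LBH589. Of 17 histone genes 11 were higher with HL13 (6 with the methods' t-test) and 1 lower (median difference 0.20), as H2BC5 was by 0.43. Histone genes, too, have near-identical copies.

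The zinc-binding metallothioneins and zinc-responsive genes were higher with HL13 for 9 of 15 and lower for 1, with a median difference of 0.31. MT1G read 7.94 to 8.05 on the HL13 arrays, 6.73 to 6.82 with LBH589 and 5.43 to 5.66 with DMSO, a 2.35-fold difference, and MT1F differed by 0.97. Metallothionein copies are close in sequence, so probe sets may read more than 1. Neuronal genes, which plasma cells do not need, were higher with HL13 for 13 of 28 and lower for none (median difference 0.11). Besides INA, the stathmin gene STMN2, which passed the filter through its HL13 arrays alone, and the neurofilament gene NEFL differed by 1.08 and 0.88.

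**Figure D4:**
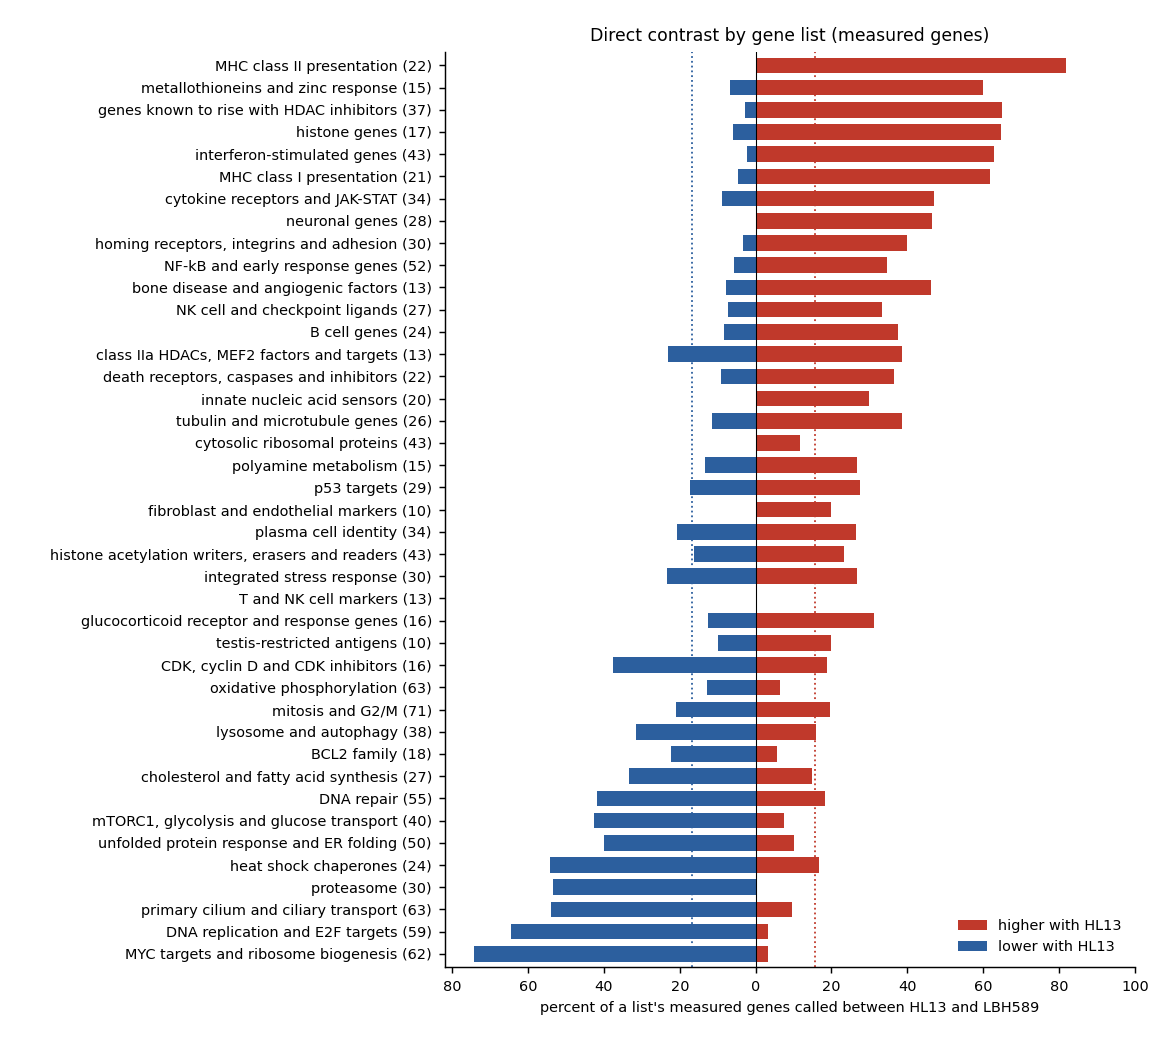
Percent of each list's tested genes that were called higher (red) or lower (blue) with HL13 than with LBH589, for lists with at least 10 genes tested. The dotted lines give the share over all genes, 15.7% higher and 16.9% lower. MHC class II presentation reaches furthest to the higher side (18 of 22) and MYC targets and ribosome biogenesis furthest to the lower side (46 of 62). All lists were chosen with earlier results of these data known, and the cilium list after these values were seen.

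Ribosome biogenesis stood on the other side. MYC drives the genes that transcribe, cut and assemble ribosomal RNA, and of 62 MYC targets and ribosome biogenesis genes tested 46 were lower with HL13 and 2 higher, with a median difference of -0.27. Both compounds lowered the list, with a median change of -0.90 with HL13 and -0.59 with LBH589. WDR43, which acts in the same processing complex as UTP15, read 7.48, 7.61 and 7.58 with HL13, 8.25, 8.28 and 8.31 with LBH589 and 9.57, 9.46 and 9.51 with DMSO. PNO1, needed for small subunit maturation, differed by -0.77. The helicase gene DDX10 was the exception in kind: it read 8.17, 8.15 and 8.14 with HL13 but 8.82, 8.94 and 8.92 with LBH589 against 8.83, 8.76 and 8.72 with DMSO, down with HL13 and up, by 0.12, with LBH589. The proteins of the ribosome itself did not follow. Of 43 genes of cytosolic ribosomal proteins 5 were higher with HL13 (11.6%, 2 without HL13 replicate 3), none lower and 38 not called.

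DNA replication and E2F target genes were lower with HL13 for 38 of 59 and higher for 2 (median difference -0.19). The median change against DMSO was -0.47 with HL13 and -0.30 with LBH589. POLD3, a subunit of DNA polymerase delta, read 8.32, 8.25 and 8.33 with HL13, 8.79, 8.77 and 8.85 with LBH589 and 9.33, 9.32 and 9.31 with DMSO. ORC1, of the origin recognition complex, differed by -0.46, and CCNE2, the cyclin of the G1 to S step, changed by -0.57 with HL13 and by -0.07 (95% interval -0.19 to 0.05) with LBH589. Genes of mitosis did not lean in this way, with 14 higher (19.7%, 8 without LBH589 replicate 2) and 15 lower of 71 (21.1%, 10 without HL13 replicate 2). Of 16 cyclin D, CDK and CDK inhibitor genes 3 were higher (18.8%, 1 without HL13 replicate 3) and 6 lower (37.5%). CDK4, the G1 kinase, fell further with HL13 (difference -0.42), whereas CDK2, the S phase kinase, rose with LBH589 by 0.51 and stayed near DMSO with HL13. DNA repair genes were lower with HL13 for 23 of 55 (41.8%) and higher for 10 (18.2%), against 16.9% and 15.7% of all genes tested.

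Protein quality control was lower with HL13 in several branches. Of 30 proteasome genes 16 were lower (53.3%) and none higher (median difference -0.12), with PSMB3 at -0.38. PSMD2, a subunit of the regulatory particle, moved in opposite directions, with changes of -0.14 with HL13 and 0.21 with LBH589. Of 24 heat shock chaperones 13 were lower and 4 higher, and the higher ones included the small heat shock protein gene HSPB1 (difference 0.75). Of 50 genes of the unfolded protein response and endoplasmic reticulum folding 20 were lower (13 without HL13 replicate 2, and 13 with a replicate block) and 5 higher. SELENOS, a membrane component of endoplasmic reticulum degradation, was lower by 0.42, while KDELR3, a receptor that returns escaped chaperones, was higher by 0.98. Of 40 genes of mTORC1, glycolysis and glucose transport 17 were lower and 3 higher, but the largest differences in that list were positive, in DDIT4, an inhibitor of mTORC1, by 0.88 and in the glucose transporter gene SLC2A3 by 0.82.

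Genes of the primary cilium, the sensory organelle built on a centriole by intraflagellar transport, recurred among the largest differences (LZTFL1, TCTN3, KIAA0753, RPGRIP1L). A list of cilium genes was therefore drawn up after these values were seen, and its counts are a description only. Of 63 tested, 34 were lower with HL13 than with LBH589 and 6 higher, with a median difference of -0.15. The median change was 0.21 with HL13 and 0.47 with LBH589, and 6 genes moved in opposite directions (over all genes tested 1.22% did). WDR19, a subunit of the retrograde transport complex, read 8.13, 8.09 and 8.05 with HL13, 8.83, 8.85 and 8.97 with LBH589 and 7.24, 7.13 and 7.12 with DMSO, in 3 separate steps. ARL6, a GTPase that recruits the BBSome coat, read 6.84, 6.81 and 6.75 with HL13, 7.30, 7.41 and 7.62 with LBH589 and 5.69, 5.66 and 5.52 with DMSO. CFAP263, a cilium-associated protein gene that is not in this list, read 5.94, 5.94 and 5.90 with HL13. It read 6.66, 6.72 and 6.67 with LBH589, against 5.65, 5.50 and 5.64 with DMSO.

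Many cilium genes are controlled by RFX factors through an X-box. It was searched on both strands as GTNNCC, then 2 bases of any kind, then GGNAAC. Promoters of 3 genes that hold it, chosen after their values were seen, are shown as above with the X-box in capitals: ANKRD42 at chr11:83193462-83193761, ARL6 at chr3:97764508-97764807 and CFAP263 at chr16:58249686-58249985, all on the + strand of GRCh38.p14 (RefSeq). ANKRD42 and CFAP263 are not in the cilium list.
ANKRD42: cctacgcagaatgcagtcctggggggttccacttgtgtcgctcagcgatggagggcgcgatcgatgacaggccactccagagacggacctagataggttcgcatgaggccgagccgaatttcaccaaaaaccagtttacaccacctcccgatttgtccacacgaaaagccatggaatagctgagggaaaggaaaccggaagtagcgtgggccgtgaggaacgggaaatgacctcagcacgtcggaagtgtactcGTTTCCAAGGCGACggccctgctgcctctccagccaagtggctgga
ARL6: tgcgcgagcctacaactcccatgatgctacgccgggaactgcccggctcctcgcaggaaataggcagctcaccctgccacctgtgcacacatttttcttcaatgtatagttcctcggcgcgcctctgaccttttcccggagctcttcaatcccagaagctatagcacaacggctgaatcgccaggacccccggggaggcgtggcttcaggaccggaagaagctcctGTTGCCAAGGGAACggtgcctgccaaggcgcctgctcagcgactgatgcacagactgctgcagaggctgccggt
CFAP263: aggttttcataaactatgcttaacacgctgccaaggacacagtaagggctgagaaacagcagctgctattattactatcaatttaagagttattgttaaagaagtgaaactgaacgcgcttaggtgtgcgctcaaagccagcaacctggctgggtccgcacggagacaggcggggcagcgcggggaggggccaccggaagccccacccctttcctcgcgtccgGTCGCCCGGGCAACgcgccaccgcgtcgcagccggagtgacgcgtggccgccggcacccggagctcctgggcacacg

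The X-box was found in 1.49% of the promoters listed and for 2.25% of tested genes with a promoter. Among genes called and at least 0.5 lower with HL13 it was found for 10 of 140 (7.14%), and among those at least 0.5 higher for 3 of 210 (1.43%). In the cilium list 6 of 57 held it (10.5%). As for the ISRE, the sets were picked by their difference, and this counts letters and not binding sites.

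**Figure D5:**
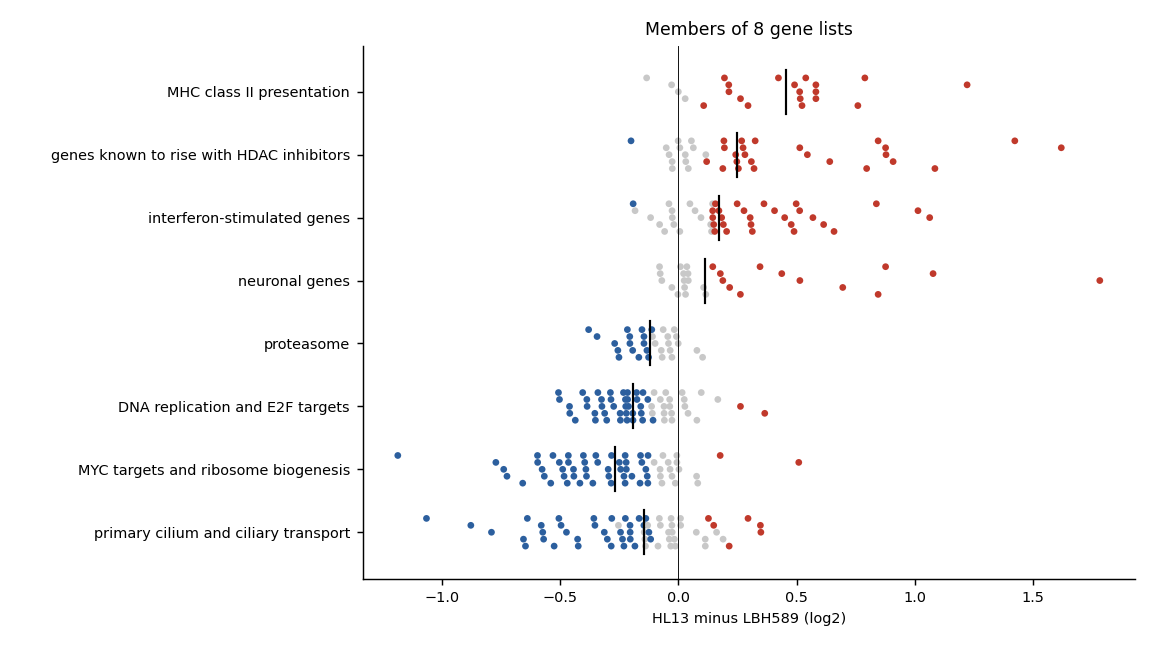
HL13 minus LBH589 (log2) for each tested member of 8 lists, with called members in red (higher with HL13) or blue (lower), members not called in grey and a black line at the list median. The medians run from 0.46 for MHC class II presentation to -0.27 for MYC targets and ribosome biogenesis.

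In the list of writers, erasers and readers of histone acetylation 3 of 43 genes, SIN3A, SAP30 and SIRT5, moved in opposite directions. Over all genes tested 1.22% did. SIN3A, the scaffold of the SIN3 complex, read 8.94, 8.94 and 8.89 with HL13, 9.48, 9.44 and 9.54 with LBH589 and 9.36, 9.30 and 9.28 with DMSO, and its partner SAP30 changed by -0.41 with HL13 and by 0.24 with LBH589. Of the same 43 genes 10 were higher with HL13 (23.3%, 6 without HL13 replicate 2) and 7 lower (16.3%), against 15.7% and 16.9% of all genes tested. In the list of class IIa deacetylases, MEF2 factors and their targets, RHOB, a small GTPase gene, was higher with HL13 by 1.12, and KLF2, a zinc finger factor gene, moved up with HL13 (0.22) and down with LBH589 (-0.29). MCOLN1, the lysosomal calcium channel, rose by 0.38 with HL13 and 0.97 with LBH589. Of 38 genes of lysosome and autophagy 6 were higher with HL13 (15.8%, near the share of all genes) and 12 lower (31.6%).

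Of the cell death genes, 8 of 22 death receptors, caspases and inhibitors were higher with HL13 (36.4%) and 2 lower (9.09%). TNFRSF10D, a TRAIL decoy receptor, moved with HL13 alone (difference 0.46), and XIAP, the caspase inhibitor, fell by 0.57 with HL13 and by 0.90 with LBH589. In the BCL2 family 4 of 18 were lower (22.2%, against 16.9% of all genes, and 2 with the methods' t-test). PMAIP1 alone was higher, a call lost without HL13 replicate 1, HL13 replicate 3 or LBH589 replicate 2, and with that test. Of 34 cytokine receptors and JAK-STAT genes 16 were higher with HL13 (10 with the methods' t-test) and 3 lower. The largest difference was in IL13RA1, a receptor chain for interleukin 13 (1.01), which passed the filter through its HL13 arrays alone. NF-kB and early response genes were higher for 18 of 52 (34.6%) and lower for 3 (5.77%). Oxidative phosphorylation genes were higher for 4 of 63 (6.35%) and lower for 8 (12.7%), both under the shares of all genes tested (15.7% and 16.9%). No T and NK cell marker of 13 and no erythroid marker of 5 was called between the compounds. Where limma called no member of a list in a direction, the unadjusted p was under 0.05 for 1 proteasome gene that was higher, 1 neuronal gene that was lower and 1 of the study's interferon and chemokine genes that was lower, and for 0 genes of the MHC class II, nucleic acid sensor, ribosomal protein, T and NK cell and erythroid lists. The methods' t-test with adjustment called 0 in each of these directions. The summed log2 level of the 4 fibroblast and endothelial markers was 24.7 with HL13, 23.5 with LBH589 and 23.7 with DMSO. PECAM1 made up most of that difference, and the part of other cells in it was not tested.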

How the data were processed

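Total RNA of 9 MM.1S samples, 3 each with DMSO, HL13 and LBH589, was biotin-labelled and hybridized to Human Transcriptome arrays. The deposited table holds log2 intensities for 70523 probe sets, normalized by the authors by a method not stated in the labels, headers or paper. The study's methods describe RNA sequencing, whereas the files hold array values. No deposited column was left out (0).

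Of the 23781 probe sets with exactly 1 gene symbol (22465 genes), those above their array's median on at least 3 arrays were kept. The brightest on average then stood for its gene, which left 15842 genes. All 9 arrays were fitted in limma 3.58.1 (R 4.3.3) with lmFit and eBayes and no replicate block. P-values were adjusted by Benjamini-Hochberg over all genes tested and are two-sided. The common slope was fitted by total least squares through the origin over changes against DMSO. Array number limits the precision. The code was tested on simulated data.

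Named genes were the 10 largest differences each way whose arrays did not overlap, the 10 clearest opposite genes, 8 per compound that moved with that compound alone, the 8 furthest from the line each way, the study's genes and up to 4 members of each list with the largest differences. Others are marked as chosen later. The members and lists were chosen with earlier results of these data known. Alternatives were another normalization, no filter, mean probe sets, a trended robust eBayes, a replicate block, the methods' t-test, the 6 drug arrays alone and leaving out each array. Replicate numbers were not treated as pairs. Same-numbered arrays of different groups deviated from their group means together with r between -0.303 and 0.0612. For arrays of unlike numbers r lay between -0.194 and 0.318. These values do not show whether samples were paired.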

Additional observations from a re-analysis of the deposited data

How the results depend on the processing

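No count reported for a whole comparison moved by over 1.5 times, and no named gene reversed, under any alternative run. Leaving out each array in turn gave 1999 to 2567 genes higher with HL13 and 2166 to 2773 lower, 38 to 42 and 5 to 6 at 2-fold or more, 49 to 79 opposite genes up with HL13 and 87 to 163 down, 739 to 957 genes near DMSO with LBH589 and 502 to 649 near DMSO with HL13. In the same-direction kind it gave 1707 to 2067 genes moved further by HL13 and 776 to 1218 by LBH589, and for the common slope 2128 to 2694 genes above and 1979 to 2557 below. With the replicate number as a block, 2138 genes were higher and 2304 lower, and 4397 of these 4442 were among the 5172 called without it. The methods' t-test after Benjamini-Hochberg called 1688 higher and 1849 lower, and the 6 drug arrays alone 2291 and 2453. The slope lay between 0.8745 and 0.8892 over the changes of normalization, filter, probe sets and arrays, and was 0.8612 as a median ratio. Of 205 named genes at most 6 lost their call under any setting but the methods' t-test, which lost 15. CDK6 was among them. The 20 unfolded protein response genes lower with HL13 became 13 with the block and without HL13 replicate 2. The limits are 3 arrays a group, an unstated normalization and a floor that compresses dim genes. Each compound was also measured at 5 nM and 24 h only.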

Other observations

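Another 46742 probe sets carried no gene symbol or several. Of these, 19515 passed the filter on dim values, and 1118 were higher and 865 lower with HL13 than with LBH589 (10.2% called, limma with Benjamini-Hochberg adjustment). At 2-fold or more 52 were higher and 3 lower. They are not named here.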
